A study of Homo sapiens with 8 samples.

Results

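The C/EBP transcription factors were followed as 5 genes, CEBPA, CEBPB, CEBPD, CEBPE and CEBPG, picked by symbol from the 60483 gene identifiers that were counted in each library. All 5 were found and all 5 passed the filter on low counts, which 13982 genes passed. RNA had been sequenced from NB4, a cell line of acute promyelocytic leukemia with PML/RARα, the fusion of the nuclear body protein PML with the retinoic acid receptor RARα. Every group had received lentivirus to knock down the endogenous fusion, and the replacement was carried for 72 h. In the first group the replacement was an empty vector, and in the others it was an HA-tagged fusion, either full-length PML/RARα, PML/RARα-F158E or PML/RARα-ΔIDR, and the labels describe both mutants as unable to phase separate. Each group had 2 libraries, numbered 1 and 2 below, and nothing in the labels says that they came from separate cultures, so p-values measure only the spread between libraries, which may be technical. No library without the knock-down was analysed here, and the labels name neither the promoter of the vectors nor a clone.

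C/EBP proteins are basic leucine zipper factors that bind DNA as pairs, either with one another or with zipper proteins such as ATF4. C/EBPα drives the step from the common myeloid progenitor to the granulocyte line, C/EBPε acts later, when neutrophils make their secondary granules, and C/EBPβ carries granulocyte production and cytokine gene expression during infection. C/EBPδ is an inducible factor of the acute phase response, and C/EBPγ lacks an activation domain and acts through its partners, ATF4 among them. Acute promyelocytic leukemia is an arrest at the promyelocyte stage of this line.

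All 5 genes were lower with full-length PML/RARα than with empty vector, by 1.25-fold for CEBPD to 2.89-fold for CEBPB. With F158E, CEBPA, CEBPB, CEBPE and CEBPG were higher than with the full-length fusion, and no member passed the test against empty vector. With ΔIDR the same 4 genes were higher than with the full-length fusion, and CEBPB and CEBPE also lay above empty vector, CEBPB by 2.04-fold. Levels are in CPM, which sets each count against its library's total after TMM scaling, with the SD over the 2 libraries of a group. Differences are log2 fold changes ± SE from edgeR's quasi-likelihood test over all 8 libraries (n = 2 per group). A gene was called where its p, adjusted by Benjamini-Hochberg over all 13982 genes, was under 0.05, and "rose" and "fell" are used of such genes.

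Libraries held 16779364 to 21965389 gene counts, and a member had between 108 counts (CEBPB, full-length library 2) and 2130 counts (CEBPA, F158E library 1). Of 9 promyelocyte markers, 8 were expressed and ELANE had 0 to 2 counts in each library. The summed CPM of the 9 ran from 6180 to 11408. Markers of other cells summed to 1.32 to 4.09 CPM for 7 erythroid genes, 18.5 to 43.8 for 9 lymphoid genes, 29.9 to 71.2 for 8 monocyte genes and 8.74 to 17.3 for 7 epithelial and fibroblast genes. The lymphoid sum moved with the groups, at 29.3 and 28.0 CPM with empty vector, 43.8 and 37.4 with the full-length fusion, 26.1 and 32.8 with F158E, and 18.5 and 19.5 with ΔIDR. Of its 5 tested genes CD79B and TRAC rose with the full-length fusion against empty vector and 0 fell, while MS4A1 had 0 counts in every library and CD3E and PAX5 had at most 1. The epithelial and fibroblast sum was 8.74 and 11.1 CPM with empty vector, 14.2 and 17.3 with the full-length fusion, 9.77 and 14.03 with F158E, and 10.3 and 9.06 with ΔIDR. Of its 3 tested genes EPCAM and KRT8 rose with the full-length fusion and 0 fell, while CDH1 had 0 counts in every library. The part of these markers in the C/EBP values was not tested. RARA stood at 23.1, 77.0, 32.3 and 1358 CPM and PML at 51.9, 124, 65.9 and 442 CPM in empty vector, full-length, F158E and ΔIDR cells. The mutants thus differed from the full-length fusion in the RNA counted at both fusion genes as well as in the mutation, and these cannot be told apart. In bulk RNA, fewer cells of a type and less RNA per cell also cannot be told apart.

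The start regions of 3 members are shown because the family fell together and C/EBP, PU.1 and retinoic acid receptor sites could be looked for in them. They come from RefSeq on GRCh38.p14, 5′ to 3′ on the strand of the gene. The CEBPA stretch ends just before the GENCODE 29 start and the CEBPB stretch just before a RefSeq start, and capitals in the CEBPE stretch mark a GAGGAA, the core bound by the myeloid factor PU.1.
CEBPA, chr19:33302565-33302784, minus strand: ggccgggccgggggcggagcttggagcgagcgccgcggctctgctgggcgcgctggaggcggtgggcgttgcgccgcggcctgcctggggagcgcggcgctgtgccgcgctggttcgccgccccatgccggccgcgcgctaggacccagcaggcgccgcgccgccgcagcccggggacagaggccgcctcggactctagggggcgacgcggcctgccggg
CEBPB, chr20:50190333-50190582, plus strand: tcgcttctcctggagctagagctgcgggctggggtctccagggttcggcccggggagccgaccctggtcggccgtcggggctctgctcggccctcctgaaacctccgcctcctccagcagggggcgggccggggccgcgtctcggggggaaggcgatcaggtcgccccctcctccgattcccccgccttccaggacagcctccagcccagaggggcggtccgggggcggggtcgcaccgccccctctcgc
CEBPE, chr14:23119279-23119308, minus strand: gcattgactacaGAGGAAggaaaaggaagc
The windows that were searched ran from 250 bases before to 50 bases after each RefSeq start, on both strands. The GC content of the CEBPA window was 80.7%, that of the 2 CEBPB windows 77.0% and 76.7%, and that of the 2 CEBPG windows 77.3% and 79.7%. The CEBPE window, at 57.7%, was near the median of 58.7% over 35116 windows. The C/EBP site TTNNGCAA was not found in the windows of CEBPA, CEBPB, CEBPE or CEBPG, and 10.5% of all windows held it. The retinoic acid receptor half-site AGGTCA was also not found in them, against 13.8% of all windows. GAGGAA was found once, in CEBPE at 41 bases before the RefSeq start, and 27.9% of all windows held it. That match lies inside the CEBPE gene as GENCODE 29 draws it, from 23117304 to 23119616 on the minus strand. The TATA box TATAAA lay 30 bases before the CEBPA start and 29 bases before the second CEBPB start, within the exon that GENCODE 29 draws there, and 11.5% of all windows held one. The CRE core TGACG, part of the site bound by CREB and ATF proteins, was found in the second CEBPB window and in 24.6% of all windows. In CEBPB it also lay within the GENCODE 29 exon. These matches describe the letters in the windows, and no binding was measured.

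CEBPA (ENSG00000245848.2, chromosome 19, 33299934 to 33302564, minus strand, GRCh38) is a single-exon gene of 2631 bases. It stood at 99.2 and 94.3 CPM in the empty vector libraries, 69.8 and 62.7 with the full-length fusion, 97.3 and 89.6 with F158E, and 93.8 and 88.3 with ΔIDR. The full-length libraries were the lowest and did not overlap any other group, while the other 3 groups lay close together. Against empty vector CEBPA fell by 0.55 ± 0.07 with the full-length fusion (edgeR adjusted p = 1.34e-11), a 1.46-fold difference. It rose from the full-length level by 0.50 ± 0.06 with F158E (edgeR adjusted p = 3.77e-10) and by 0.46 ± 0.07 with ΔIDR (4.89e-09). Its difference from empty vector was -0.05 with F158E (95% interval -0.17 to 0.07) and -0.09 with ΔIDR (-0.21 to 0.04), and neither passed the test.

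CEBPE (ENSG00000092067.5, chromosome 14, 23117304 to 23119616, minus strand) has 2 exons with 1554 bases in all. Its levels were 66.7 and 64.7 CPM with empty vector, 25.8 and 27.9 with the full-length fusion, 66.5 and 64.7 with F158E, and 80.8 and 80.4 with ΔIDR. F158E and empty vector libraries overlapped, full-length libraries lay far below them, and both ΔIDR libraries lay above all others. The fall with the full-length fusion was 1.29 ± 0.08 on the log2 scale, or 2.45-fold (edgeR adjusted p = 4.74e-25). CEBPE rose from there by 1.29 ± 0.08 with F158E (edgeR adjusted p = 3.96e-25) and by 1.59 ± 0.08 with ΔIDR (3.97e-31). Between F158E and empty vector the difference was -0.00, with a 95% interval of -0.15 to 0.14. With ΔIDR CEBPE rose above empty vector by 0.30 ± 0.07 (edgeR adjusted p = 0.00207) and above F158E by 0.30 ± 0.07 (9.99e-04).

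CEBPB (ENSG00000172216.5, chromosome 20, 50190734 to 50192689, plus strand) is a single-exon gene of 1956 bases. It had 19.1 and 22.1 CPM with empty vector, 7.96 and 6.30 with the full-length fusion, 16.3 and 15.8 with F158E, and 42.5 and 41.4 with ΔIDR. No pair of groups overlapped, and the order was full-length, F158E, empty vector, ΔIDR. CEBPB fell with the full-length fusion by 1.53 ± 0.15 against empty vector (edgeR adjusted p = 1.24e-15). Against the full-length fusion it rose by 1.17 ± 0.15 with F158E (edgeR adjusted p = 1.05e-10) and by 2.55 ± 0.14 with ΔIDR (4.39e-29), a 5.88-fold difference. The neighbours F158E and empty vector did not pass the test, with a difference of -0.36 ± 0.13 (95% interval -0.61 to -0.11, edgeR adjusted p = 0.0646, unadjusted p = 0.00617). With ΔIDR CEBPB rose above empty vector by 1.03 ± 0.12 (edgeR adjusted p = 8.05e-11) and above F158E by 1.39 ± 0.12 (2.57e-16), or 2.61-fold.

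**Figure D1:**
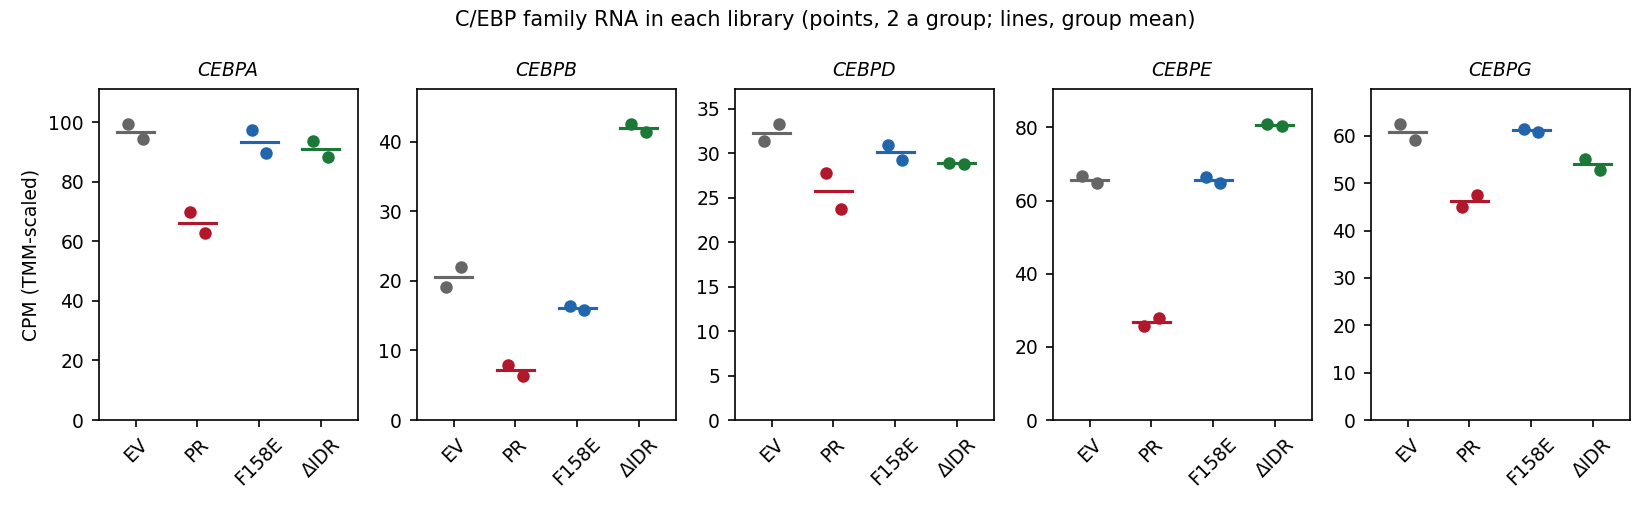
CPM of each C/EBP gene (vertical axis, linear, from 0) in each of the 8 libraries, by group on the horizontal axis, with a line for the group mean (EV, empty vector; PR, full-length PML/RARα). Full-length libraries are lowest for every gene, and CEBPB with ΔIDR stands at 42.5 and 41.4 CPM against 19.1 and 22.1 with empty vector.

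CEBPG (ENSG00000153879.7, chromosome 19, 33373330 to 33382686, plus strand) has 3 exons with 4411 bases. It stood at 62.4 and 59.1 CPM with empty vector, 44.9 and 47.4 with the full-length fusion, 61.5 and 60.8 with F158E, and 55.2 and 52.8 with ΔIDR. The F158E libraries lay within the range of empty vector, and the ΔIDR libraries lay between the full-length and empty vector groups without overlap. CEBPG fell with the full-length fusion by 0.40 ± 0.08 (edgeR adjusted p = 1.36e-05), and rose from there by 0.41 ± 0.08 with F158E (8.32e-06). The rise from full-length to ΔIDR was 0.22 ± 0.08 (edgeR adjusted p = 0.0141), and it no longer passed without full-length library 1 (0.112) or without ΔIDR library 1 (0.0801). ΔIDR differed from empty vector by -0.17 ± 0.08 (95% interval -0.33 to -0.02, edgeR adjusted p = 0.171) and from F158E by -0.18 ± 0.08 (0.0899), and neither passed.

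CEBPD (ENSG00000221869.4, chromosome 8, 47736909 to 47739086, minus strand) is a single-exon gene of 2178 bases. Its levels were 31.4 and 33.3 CPM with empty vector, 27.8 and 23.7 with the full-length fusion, 30.9 and 29.3 with F158E, and 28.9 and 28.8 with ΔIDR. The full-length libraries were the lowest, and the other groups followed each other within a few CPM. CEBPD fell with the full-length fusion by 0.33 ± 0.11 (edgeR adjusted p = 0.00971), and this call was lost without empty vector library 2 (0.0836) and without full-length library 2 (0.220). Against the full-length fusion its differences were 0.22 ± 0.11 with F158E (edgeR adjusted p = 0.0887) and 0.16 ± 0.11 with ΔIDR (0.224), neither of which passed. Without full-length library 1 the F158E difference passed (edgeR adjusted p = 0.0404). Against empty vector the differences were -0.10 with F158E (95% interval -0.31 to 0.11) and -0.16 with ΔIDR (-0.38 to 0.05).

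The counts of members called are read against the share of all tested genes called in the same comparison. Between full-length fusion and empty vector 5 of 5 members fell, where 48.6% of tested genes were called, 24.2% higher and 24.4% lower. Between F158E and the full-length fusion 4 of 5 rose and 0 fell, with 43.9% of genes called, 22.2% higher and 21.8% lower. Between ΔIDR and the full-length fusion 4 of 5 rose and 0 fell, with 49.9% of genes called, 24.9% higher and 24.9% lower. These 3 comparisons share the full-length libraries, so the falls and rises are not separate observations of that group. Between F158E and empty vector edgeR called 0 of 5 members, and 1, CEBPB, had an unadjusted p under 0.05. When 10 counts were required in every library, edgeR called 1, CEBPB (adjusted p = 0.0494). DESeq2 and limma voom each called 0, with 1 at an unadjusted p under 0.05, and the share of all genes called by edgeR was 8.65%, 3.98% higher and 4.67% lower. Between ΔIDR and empty vector 2 of 5 rose and 0 fell, CEBPB and CEBPE, with 10.3% of genes called, 5.06% higher and 5.23% lower. Between ΔIDR and F158E the same 2 rose and 0 fell, with 18.5% of genes called, 9.17% higher and 9.37% lower.

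**Figure D2:**
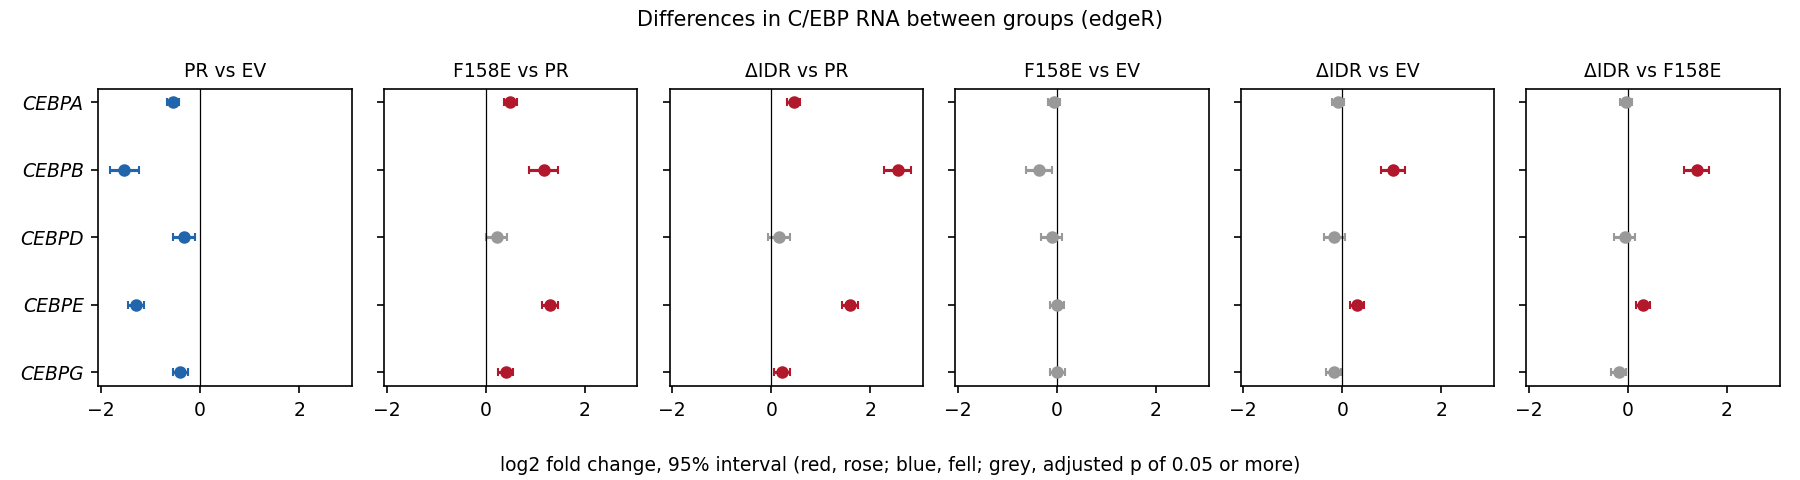
Log2 fold change of each C/EBP gene (horizontal axis) in the 6 comparisons, with bars for the 95% interval, red for genes that rose, blue for those that fell and grey for those not called (EV, empty vector; PR, full-length PML/RARα). CEBPB with ΔIDR against the full-length fusion is farthest from 0, at 2.55, and the F158E against empty vector panel has no coloured point.

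Levels of different members were compared as CPM per kilobase of merged exons. In empty vector cells CEBPE had 42.3 ± 0.888 and CEBPA 36.8 ± 1.32 CPM per kilobase, followed by CEBPD at 14.8 ± 0.605, CEBPG at 13.8 ± 0.527 and CEBPB at 10.5 ± 1.05. The neighbours CEBPD and CEBPG lay within a unit or so of each other. With the full-length fusion CEBPA led at 25.2 ± 1.89, ahead of CEBPE at 17.3 ± 0.964, and CEBPB was last at 3.64 ± 0.601. With ΔIDR CEBPE stood at 51.9 ± 0.195, CEBPA at 34.6 ± 1.48 and CEBPB next at 21.5 ± 0.394, above CEBPD at 13.3 and CEBPG at 12.2 ± 0.378. The order of CEBPA and CEBPE depends on the length used. Antisense genes share 43.4% of the CEBPA exon and had 0 counts in every library, and how reads from the shared bases were counted is not given in the sources used here. With its whole count divided by the 1490 unshared bases, CEBPA came to 64.9 CPM per kilobase in empty vector cells, above CEBPE. No count was made over those bases alone. CEBPB-AS1 covers 11.8% of the CEBPB exon and had 4 to 16 counts, and the library kit does not mark strand.

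As a share of the family's summed CPM per kilobase, CEBPB moved from 8.92% with empty vector to 5.32% with the full-length fusion, 7.22% with F158E and 16.1% with ΔIDR. CEBPE took 35.8%, 25.3%, 37.2% and 38.9% in the same order, and CEBPA 31.1%, 36.8%, 31.2% and 25.9%. The shares of CEBPD were 12.6%, 17.3%, 12.2% and 9.93%, and those of CEBPG 11.7%, 15.3%, 12.2% and 9.17%. These shares describe the mix of RNA and carry no test, and with the unshared length CEBPA held 43.9% of it in empty vector cells.

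**Figure D3:**
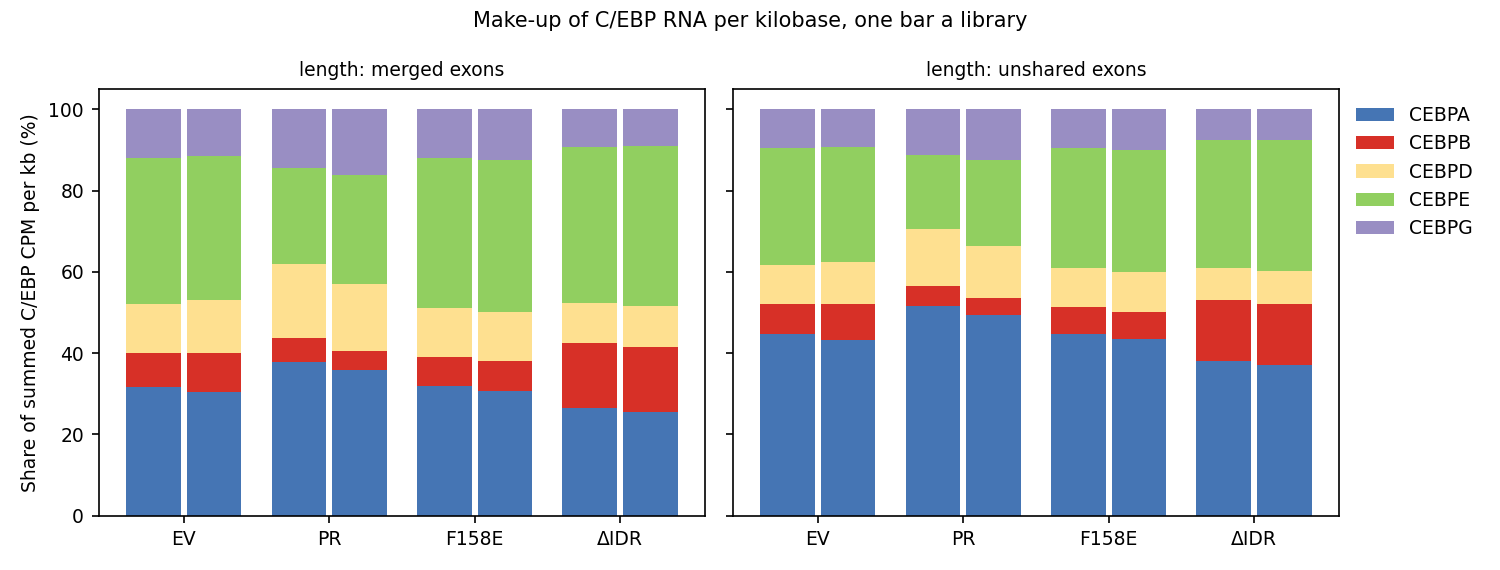
Share of each C/EBP gene in the summed CPM per kilobase of the 5 genes (vertical axis, percent), as stacked bars for the 8 libraries, with merged exon length on the left and unshared exon length on the right. On the left CEBPB takes 16.1% in the ΔIDR libraries and 5.32% on average in the full-length libraries.

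Over the 8 libraries, log2 CPM of CEBPA and CEBPE correlated with Pearson r = 0.913 and that of CEBPB and CEBPE with 0.909, while CEBPB and CEBPG gave 0.484. The 8 libraries form 4 groups of 2 and the points share their groups, so these values only describe how like the patterns were. Among the 8495 protein-coding genes whose mean log2 CPM reached 3, those most like CEBPE were STARD4 (0.998), a sterol transfer protein gene, CDK2AP2 (0.998) and HSP90B1 (0.997), an endoplasmic reticulum chaperone gene. STARD4 had mean levels of 56.4, 20.4, 56.8 and 69.3 CPM in empty vector, full-length, F158E and ΔIDR cells. Most like CEBPB were TLE4 (0.995), a corepressor gene, ACAP2 (0.993) and EVI2B (0.992). TLE4 stood at 31.2, 21.3, 28.4 and 37.8 CPM in the same order. The genes nearest to CEBPA were SYMPK (0.994), TMEM199 (0.990) and SSH3 (0.988). Close to CEBPG were BAHCC1 (0.984) and MAD2L2 (0.984), and nearest to CEBPD were ZNF212 (0.983), RFX2 (0.958) and TTI2 (0.956). With Spearman's rho in place of r, 0 of the 15 genes nearest by r, 3 for each member, stayed among the nearest 3. Over 8 libraries rho can be equal for many genes, and equal values were ordered by gene identifier. The names may thus rest on the measure, but this count cannot separate that from the order of ties.

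Genes that only share the C/EBP name moved otherwise. CEBPZ, which encodes a protein without the family's zipper, rose with the full-length fusion from 139 ± 1.88 to 183 ± 16.4 CPM, by 0.39 ± 0.05 (edgeR adjusted p = 4.54e-11). CEBPZOS, a gene on the opposite strand beside CEBPZ, rose by 0.57 ± 0.06 (edgeR adjusted p = 1.99e-12). Reads where such opposite-strand genes overlap cannot be assigned by strand here. CEBPA-DT, the transcript that diverges from CEBPA, had 6 to 23 counts and was not called in any of the 6 comparisons.

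The partners that C/EBP proteins can pair with were counted as 11 listed zipper genes, all tested. With the full-length fusion against empty vector 6 fell and 1 rose, where 24.4% of all tested genes were called lower and 24.2% higher, with a median log2 difference of -0.43 beside 0.00 over all tested genes. DDIT3, which encodes CHOP, a C/EBP relative that binds C/EBP proteins and blocks many of their sites, had 14.5 ± 2.08 CPM with empty vector and 4.39 ± 1.43 with the full-length fusion (SD, n = 2). It fell by 1.72 ± 0.19 (edgeR adjusted p = 8.07e-13). ATF4, the amino acid stress factor that pairs with C/EBPγ, fell by 0.43 ± 0.03 (edgeR adjusted p = 1.56e-20), close to the 0.40 of CEBPG. FOS, an AP-1 subunit, was the member that rose, from 9.71 and 10.1 to 30.9 and 25.5 CPM, while the AP-1 subunit genes JUN and JUND fell by 1.30 ± 0.10 and 1.63 ± 0.10. Against the full-length fusion 7 partners rose and 2 fell with F158E, beside 22.2% and 21.8% of all tested genes. With ΔIDR 6 rose and 2 fell, beside 24.9% and 24.9%. Against empty vector 1 of 11 fell with F158E, FOS, and 1 of 11 with ΔIDR, JUN. These single calls are near the share of all tested genes called in either direction, 8.65% with F158E and 10.3% with ΔIDR, and are no result about the partners.

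Of 13 listed regulators of C/EBP expression or stability, 9 fell and 3 rose with the full-length fusion against empty vector, with a median of -0.26. In that comparison 24.4% of all tested genes were called lower and 24.2% higher, with a median of 0.00. TRIB1 and TRIB2 encode adaptor proteins that can each send C/EBPα for degradation through COP1, and they moved in opposite directions. TRIB1 had 53.8 and 53.5 CPM with empty vector and 34.6 and 32.8 with the full-length fusion, a fall of 0.67 ± 0.09 (edgeR adjusted p = 2.84e-10). TRIB2 had 5.82 and 4.86 CPM with empty vector and 13.1 and 10.5 with the full-length fusion, a rise of 1.14 ± 0.23 (edgeR adjusted p = 1.65e-05). RUNX1, whose product binds a CEBPA enhancer, fell by 0.34 ± 0.04, and CALR, whose product has been described as binding CEBPA mRNA, fell by 1.14 ± 0.01. STAT3, which relays cytokine signals to C/EBP genes, rose by 0.64 ± 0.06. With F158E against the full-length fusion 8 regulators rose and 3 fell, beside 22.2% and 21.8% of all tested genes. With ΔIDR against the same full-length libraries 9 rose and 3 fell, beside 24.9% and 24.9%. Against empty vector 2 of 13 rose and 1 fell with F158E, and 2 rose and 4 fell with ΔIDR, beside 8.65% and 10.3% of all genes called in either direction. SPI1, the gene of PU.1, was among those that rose with ΔIDR, by 0.23 ± 0.05 (edgeR adjusted p = 4.34e-04), and RUNX1 among those that fell, by 0.20 ± 0.04 (2.96e-04). SPI1 also fell with the full-length fusion against empty vector, from a mean of 137 to 102 CPM, and rose from there with each mutant.

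Known granulocyte targets of the family were 23 genes, of which 15 passed the filter. With the full-length fusion 13 of these fell and 2 rose, beside 24.4% and 24.2% of all tested genes, with a median of -1.14. MMP9, a neutrophil gelatinase gene, went from 355 and 346 CPM with empty vector to 62.6 and 65.4 with the full-length fusion, a fall of 2.45 ± 0.05 (edgeR adjusted p = 8.64e-62). MPO, the gene of the primary granule enzyme myeloperoxidase, fell by only 0.14 ± 0.02 (edgeR adjusted p = 7.68e-13). CSF3R, which encodes the G-CSF receptor, went the other way, from 11.6 and 13.7 to 27.2 and 26.8 CPM, a rise of 1.09 ± 0.14 (edgeR adjusted p = 2.79e-10). ELANE, LTF, LCN2, CAMP and MMP8 were not tested, with at most 9 counts in a library (CAMP), and such counts do not show that a gene is off. With F158E against the full-length fusion 12 targets rose and 2 fell, beside 22.2% and 21.8% of all tested genes. The same counts were found with ΔIDR, beside 24.9% and 24.9%. The 2 that fell were CSF3R and IL6R in both, IL6R being named after its values were seen.

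Against empty vector the granulocyte targets divided differently with the mutants. With F158E 3 of 15 rose and 5 fell, with a median of -0.19, and with ΔIDR 9 rose and 4 fell, with a median of 0.33, beside 8.65% and 10.3% of all genes called in either direction. The 9 were MPO, S100A8, S100A9, DEFA4, PRG2, EPX, PRTN3, AZU1 and BPI, of which all but MPO are named after their values were seen, and most encode granule proteins. MMP9 fell below empty vector with F158E by 0.99 ± 0.04 (edgeR adjusted p = 2.55e-35) and with ΔIDR by 1.05 ± 0.04 (3.90e-37), whereas CEBPB and CEBPE rose with ΔIDR. The summed CPM of the promyelocyte markers was 8949 and 8819 with empty vector, 6180 and 6201 with the full-length fusion, 8605 and 8497 with F158E, and 11394 and 11408 with ΔIDR. Among the 8 tested of those 9 markers, 5 rose and 2 fell with ΔIDR against empty vector. MPO, PRTN3 and AZU1 are among these 5 and among the 9 granulocyte targets above. The counts of the lists are thus not separate observations. The part of the promyelocyte markers in the C/EBP values was not tested.

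Inflammatory targets of C/EBPβ and C/EBPδ were 16 genes, of which 10 passed the filter. With the full-length fusion 7 fell and 1 rose, beside 24.4% and 24.2% of all tested genes, with a median of -2.97. CXCL8, a neutrophil chemokine gene, had 490 and 486 CPM with empty vector, 32.7 and 35.0 with the full-length fusion, 233 and 226 with F158E, and 618 and 599 with ΔIDR. Its groups came in the same order as those of CEBPB. How many other genes share that order was not counted, and a link between the 2 genes was not tested. IL1B, a cytokine gene, had 36.6 and 40.0, 1.82 and 3.03, 13.6 and 15.3, and 60.2 and 61.1 CPM in the same order of groups. CCL2, a monocyte chemokine gene, had 62.5 and 62.8, 6.48 and 5.13, 30.5 and 28.5, and 89.7 and 89.1 CPM. With F158E against empty vector these 3 genes fell and 0 rose, and with ΔIDR the same 3 rose and 0 fell, by 0.32 ± 0.03, 0.66 ± 0.10 and 0.51 ± 0.08. Of all tested genes 4.67% were called lower with F158E and 5.06% higher with ΔIDR. TNF, which encodes another inflammatory cytokine, did not pass either test, with differences of -0.38 and -0.26. IL6 and PTGS2 had at most 2 counts in a library and were not tested.

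Monocytes also express several of these genes. Of the 8 monocyte markers 5 were tested, and CSF1R and CD14 fell with the full-length fusion against empty vector while 0 of the 5 rose. The summed CPM of the 8 was 69.9 and 60.5 with empty vector, 29.9 and 31.4 with the full-length fusion, 40.7 and 41.4 with F158E, and 69.0 and 71.2 with ΔIDR, and 2 to 4 of the 8 had 5 counts or fewer in a group. CD14 had 0 to 27 counts. With ΔIDR against empty vector 0 of the 5 rose and 1, CSF1R, fell. The part of these markers in the inflammatory values was not tested.

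Targets that C/EBP factors, C/EBPγ and C/EBPβ in particular, share with ATF4 in the amino acid response were 10 genes, of which 9 were tested. With the full-length fusion 5 fell and 2 rose, beside 24.4% and 24.2% of all tested genes, with a median of -0.44. SLC7A11, the cystine transporter gene, fell from 267 and 274 to 55.0 and 52.8 CPM, by 2.33 ± 0.05 (edgeR adjusted p = 1.82e-58). PSAT1 and PHGDH, genes of serine synthesis, rose by 0.24 ± 0.05 and 0.32 ± 0.07. ASNS, the asparagine synthetase gene, had 35.9 and 33.3 CPM with empty vector and 35.3 and 41.0 with the full-length fusion, and its difference of 0.14 ± 0.10 did not pass (edgeR adjusted p = 0.250). With F158E against the full-length fusion 5 rose and 1 fell, beside 22.2% and 21.8% of all tested genes. With ΔIDR against the full-length fusion 5 rose and 2 fell, beside 24.9% and 24.9%. Against empty vector 2 of 9 rose and 3 fell with F158E, where 8.65% of all genes were called in either direction. With ΔIDR against empty vector 0 rose and 1 fell, near the 10.3% of all genes called there and no result about these targets.

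**Figure D4:**
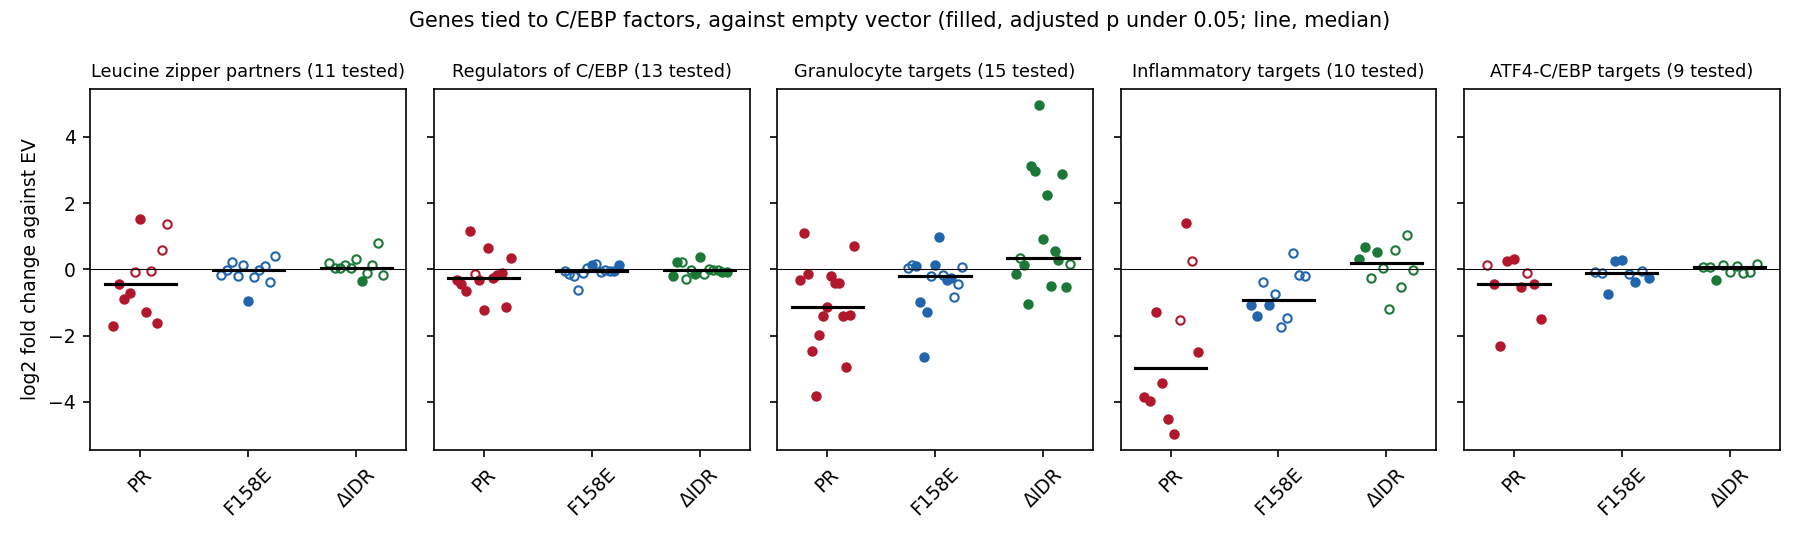
Log2 fold change of each tested gene (points) of the C/EBP zipper partners, regulators and 3 groups of targets (vertical axis), filled where called, with the median as a line, for the full-length fusion (PR) and each mutant against empty vector (EV). Inflammatory targets have a median of -2.97 with the full-length fusion, -0.92 with F158E and 0.18 with ΔIDR.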

How the data were processed

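The deposited files hold raw counts per gene for 8 libraries, and the authors applied no normalization to them, as the values show. Per the labels' protocols, total RNA was depleted of ribosomal RNA and libraries came from the NEBNext Ultra kit, which keeps no strand information. Per the submitters' processing notes the builds were hg38 and GRCh38. The sources used here give no aligner, counter or annotation. Of recorded reads 87.9% to 88.7% were assigned to genes, and 3.37% to 3.47% were in the ambiguous line. The 5 lines that name no gene were left out. Symbols were found for 56321 of 60483 identifiers in a table of gene names, and positions and lengths came from GENCODE 29.

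R 4.3.3 and edgeR 4.0.16 gave the tests, from 1 quasi-likelihood fit of all 8 libraries after filterByExpr, with TMM factors (0.989 to 1.01). SE is the log2 fold change over the root of its F statistic. Likeness used log2 CPM with a prior count of 2. DESeq2 1.42.0, limma 3.58.1 voom, other scalings and filters, a replicate block, each library left out and other gene lengths were alternatives. The tests were tried on simulated data with known changes, in far fewer genes than were called here with the full-length fusion. That trial does not show how the tests perform where so many genes differ. Libraries of 1 group differed beyond counting noise, with chi-square per degree of freedom from 2.94 to 3.57. The named genes were the members, the listed partners and regulators, the first 8 of each target list, PML, RARA and the 3 genes most like each member. The members and lists were chosen with earlier results of these data known. A few genes that these rules pick are not reported here.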

Additional observations from a re-analysis of the deposited data

How the results depend on the processing

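Of 480 log2 values of members under alternative settings, 461 kept their direction and their side of the threshold, 4 lost a call and 2 gained one. The other 13 changed sign, each in a difference that was not called. CEBPE between F158E and empty vector became 0.0045 with upper-quartile factors, 0.0115 with no filter and 0.0008 in a fit of the 2 groups alone. With each library left out in turn, F158E against empty vector ran from -0.1071 to 0.0087 for CEBPA, -0.0208 to 0.0250 for CEBPE and -0.0269 to 0.0541 for CEBPG, and ΔIDR against F158E from -0.0892 to 0.0276 for CEBPA.

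Members called between F158E and empty vector went from 0 to 1, CEBPB at an edgeR adjusted p of 0.0494, when 10 counts were required in every library. All genes called there ran from 638 to 1272 with a library left out, beside 1210, and those between ΔIDR and empty vector from 884 to 1485, beside 1439. The lower counts were 638 and 675 without empty vector library 1 or 2 and 778 and 764 without F158E library 1 or 2 for F158E, and 944 and 884 without empty vector library 1 or 2 for ΔIDR, where a lone library stood for its group and was assumed to vary like the others. DESeq2 called 883 genes between F158E and empty vector. With whole counts divided by the unshared exon length, the mean over 8 libraries became 58.3 CPM per kilobase for CEBPA and 12.4 for CEBPB. That length was added after the data were seen. With the longest transcript the mean became 13.5 for CEBPG. Of the 15 genes most like a member, 0 were kept with Spearman's rho, where equal values were ordered by gene identifier. The cause of these shifts was not tested beyond what each setting changes.

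The replicate numbers did not pair the samples, with correlations of deviations from -0.0106 to 0.043 over 8744 genes. A fit with the replicate number as a block gave CEBPE a log2 difference of -1.29 between full-length fusion and empty vector, 6778 genes called there, and no changed call of a member. Each member value rests on 108 counts or more and each group on 2 libraries, and both limit the precision.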
